A study of Mus musculus with 10 samples.

Results

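The subject is a set of 10 genes that regulate actin in dendritic spines, Rac1, Cdc42, Rhoa, Pak1, Pak3, Kalrn, Limk1, Cfl1, Dbn1 and Tiam1, picked by symbol out of the 52636 genes of the deposited table. Each symbol occurred once, and all 10 genes passed the filter on low counts. The tissue was the S1BF, the part of primary somatosensory cortex that maps the whiskers as barrels, taken at P17 from C57BL/6 mice and sequenced in 4 cKO, 2 Hetero and 4 Loxp libraries. The cKO mice carried Nex-cre and the floxed Rxra allele, written Rxratm1Krc/J in the labels, as a full conditional deletion. The Hetero mice carried Nex-cre with the same allele as a heterozygous deletion. The Loxp mice carried the floxed allele and no Cre, so that Nex-cre and the loss of Rxra cannot be told apart against Loxp. Nex-cre drives recombination from the Neurod6 locus in excitatory cortical neurons; other cells of the tissue keep Rxra. Whether every library is from a separate animal is not stated in the labels, and p-values therefore cover only the variation among these samples.

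Dendritic spines are the small protrusions that receive most excitatory input, and their shape rests on filamentous actin. Guanine nucleotide exchange factors load small GTPases such as RAC1, CDC42 and RHOA with GTP. Of these factors, TIAM1 acts on RAC1, and kalirin on RAC1 and, in its longest form, RHOA. RAC1 and CDC42 then activate PAK kinases, PAK and the RHOA effector ROCK phosphorylate LIM kinase, and LIM kinase phosphorylates cofilin, which stops cofilin from severing filaments. Drebrin, the product of Dbn1, binds along the filaments and stabilises them. RXRA is a nuclear receptor that pairs with other nuclear receptors, and their sites are built from repeats of the sequence AGGTCA.

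The promoters of Cfl1, Rhoa, Cdc42 and Pak1 are printed because they hold the motif of nuclear receptor sites or that of the activity-dependent factor CREB within 250 bases before to 50 bases after a start site. The sequences are those of RefSeq on GRCm38.p6, 5′ to 3′ on the gene's strand, and 9 of the 10 genes matched the promoter table by symbol, with 15 start sites. Rac1 had no match. Capitals mark AGGTCA or its reverse complement TGACCT, and TGACGTCA, the full cAMP response element.
Cfl1, chr19:5490205-5490504, plus strand: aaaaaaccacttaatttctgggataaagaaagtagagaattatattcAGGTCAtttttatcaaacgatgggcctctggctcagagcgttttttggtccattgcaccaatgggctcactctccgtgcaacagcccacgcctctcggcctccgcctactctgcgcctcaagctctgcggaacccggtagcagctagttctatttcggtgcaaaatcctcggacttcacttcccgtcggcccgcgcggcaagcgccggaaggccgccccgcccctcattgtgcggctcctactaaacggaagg
Rhoa, chr9:108306547-108306846, plus strand: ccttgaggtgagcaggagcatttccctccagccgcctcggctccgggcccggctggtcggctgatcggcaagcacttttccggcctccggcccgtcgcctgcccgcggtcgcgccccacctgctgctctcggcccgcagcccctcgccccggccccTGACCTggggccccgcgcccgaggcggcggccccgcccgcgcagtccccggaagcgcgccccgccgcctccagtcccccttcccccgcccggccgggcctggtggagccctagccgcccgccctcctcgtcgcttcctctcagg
Cdc42, chr4:137357710-137358009, minus strand: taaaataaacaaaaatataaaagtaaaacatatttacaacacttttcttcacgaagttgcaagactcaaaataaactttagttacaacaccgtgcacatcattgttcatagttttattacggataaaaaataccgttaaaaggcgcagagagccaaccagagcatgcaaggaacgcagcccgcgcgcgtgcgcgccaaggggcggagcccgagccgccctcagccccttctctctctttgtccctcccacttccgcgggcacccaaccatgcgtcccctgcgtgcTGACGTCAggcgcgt
Pak1, chr7:97788291-97788590, plus strand: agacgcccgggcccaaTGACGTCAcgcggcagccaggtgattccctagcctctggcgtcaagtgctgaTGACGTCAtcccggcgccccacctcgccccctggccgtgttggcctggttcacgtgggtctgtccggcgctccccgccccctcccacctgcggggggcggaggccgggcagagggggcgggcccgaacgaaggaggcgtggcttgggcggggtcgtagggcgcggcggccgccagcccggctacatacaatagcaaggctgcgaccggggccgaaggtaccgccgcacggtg
AGGTCA was searched on both strands and stood in 2 of the 15 member promoters (13.3%), against 16.3% of 32851 promoters in the table. Direct repeats of AGGTCA spaced by 1 to 5 bases, the arrangement of receptor dimer sites, stood in 0 of the 15 and in 26 of all promoters (0.0791%). TGACGTCA, which reads the same on both strands, stood in 2 of the 15 (13.3%), against 1.79% of all. It was 1 of 6 motifs searched, all on both strands, and the 3 not yet given were GGGCGG in 7 of the 15 (46.7%, against 35.7% of all), TATAAA in 2 of the 15 (13.3%, against 13.6%) and the CArG box in 1 of the 15 (6.67%, against 1.63%). The median GC content was 56.7% in the 15 windows, against 52.7% in all. The Pak1 promoter at its upstream start held TGACGTCA at 2 places and Cdc42 at 1. These matches describe the letters in the windows and not binding.

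The libraries held 19332990 to 26086337 counts. The raw counts of the 10 genes ran from 1543 (Pak3) to 29270 (Cfl1) per library, so that counting error alone was 2.55% or less of a value. The markers of excitatory neurons summed to 5798 to 6271 CPM (counts scaled to a library total of 1e6 after TMM normalization) in cKO, 5586 to 5963 in Hetero and 5165 to 6227 in Loxp, and none of the 54 markers in 10 cell type lists was at 0 in every library. Some libraries stood apart. cKO 2 held the highest or lowest of the 10 values for 39.1% of the 18455 genes tested, Loxp 1 for 31.6% and Loxp 2 for 26.4%, against 10.5% to 20.1% for the other 7. In cKO 2 all 6 astrocyte markers (2081 CPM in sum, against 1577 to 1771 in the other 9 libraries) and all 4 oligodendrocyte precursor markers (469.7 against 284 to 346) were at their highest, as were 4 of 5 microglia markers (222 in sum, against 168 to 190.2). The oligodendrocyte markers (5955 against 6408 to 10572), interneuron markers (649 against 664 to 989.6) and striatal neuron markers (218 against 229 to 906) were at their lowest sum there. Of the 5 excitatory neuron markers 3 were lowest in cKO 2, although their sum of 5969.8 lay within the 5165 to 6271 of the other 9 libraries. Hetero 2 carried choroid plexus markers at 731 CPM in sum, against 22.5 or less in every other library. Rxra itself was at 29.04, 32.3, 29.3 and 32.02 CPM in the cKO libraries, 23.2 and 26.4 in the Hetero libraries, and 24.5, 21.6, 28.3 and 31.8 in the Loxp libraries, with a log2 fold change of 0.21 (SE 0.112) in cKO against Loxp that did not pass the edgeR test. Against Hetero all 4 cKO libraries were higher without overlap, with a log2 fold change of 0.30 (SE 0.140, 95% interval 0.0026 to 0.61) and an edgeR adjusted p of 0.9999 (unadjusted 0.0483), and in Hetero against Loxp it was −0.097 (SE 0.139). Counts over the whole gene, with the cells outside Nex-cre included, do not check the deletion. Neurod6, the locus of Nex-cre, lay at 22.9 to 38.1 CPM in cKO, 34.4 and 33.99 in Hetero and 34.9 to 66.7 in Loxp, where the library labelled Loxp 4 was the lowest and lay within the cKO range. Its log2 fold change was −0.89 (SE 0.193) in cKO against Loxp, with an edgeR adjusted p of 0.9998 and a DESeq2 adjusted p of 0.0406.

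Per length, cofilin 1 was the most abundant of the 10 transcripts by a wide margin. FPKM, the deposited read density scaled to a length per gene and library depth, averaged 476 ± 45.7 over the 10 libraries for Cfl1 (SD, n = 10). This was 51.7 times the mean of Pak3, which was the lowest at 9.19 ± 0.838. The length implied by the deposited values was 7535 bases for Rhoa, 4521 for Rac1 and 2367 for Cfl1. All annotated exons of these genes together cover 7494, 4496 and 2844 bases. Such a length may exceed that of the transcripts present, and a level would then read low. The longest implied lengths of the set were those of Kalrn (18762.5 bases), Tiam1 (9965) and Pak3 (9604), so the order below depends on them. Without scaling to length, Kalrn averaged 695 CPM in cKO against 272 for Cdc42, although its FPKM was the lower. All 10 genes lay above the median of the genes tested, and Cfl1 lay above 99.8% of them. The next tier held Cdc42 at 92.1 ± 6.23, Pak1 at 90.9 ± 11.5 and Dbn1 at 79.96 ± 6.44 FPKM. Within this tier each gene's range over the libraries overlapped that of its neighbour, and the order of the means was not tested within libraries. Rac1 followed at 50.5 ± 2.63 FPKM, Kalrn at 37.6 ± 5.33 and Rhoa at 14.5 ± 0.879, each with a range apart from its neighbours in the order. The range of Rhoa, 13.27 to 16.02 FPKM, still overlapped that of Tiam1 further down, 8.79 to 15.90. The lowest tier was Limk1 at 11.9 ± 0.820, Tiam1 at 10.6 ± 1.97 and Pak3, whose ranges overlapped in turn. Among the GTPases, the deposited FPKM was highest for Cdc42 and lowest for Rhoa in every library, and of the PAK kinases Pak1 stood above Pak3 in every library. Of the 4496 exon bases of Rac1, 2309 are shared with Daglb on the opposite strand. How reads there were assigned is not stated, so the place of Rac1 among the GTPases is not settled.

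**Figure D1:**
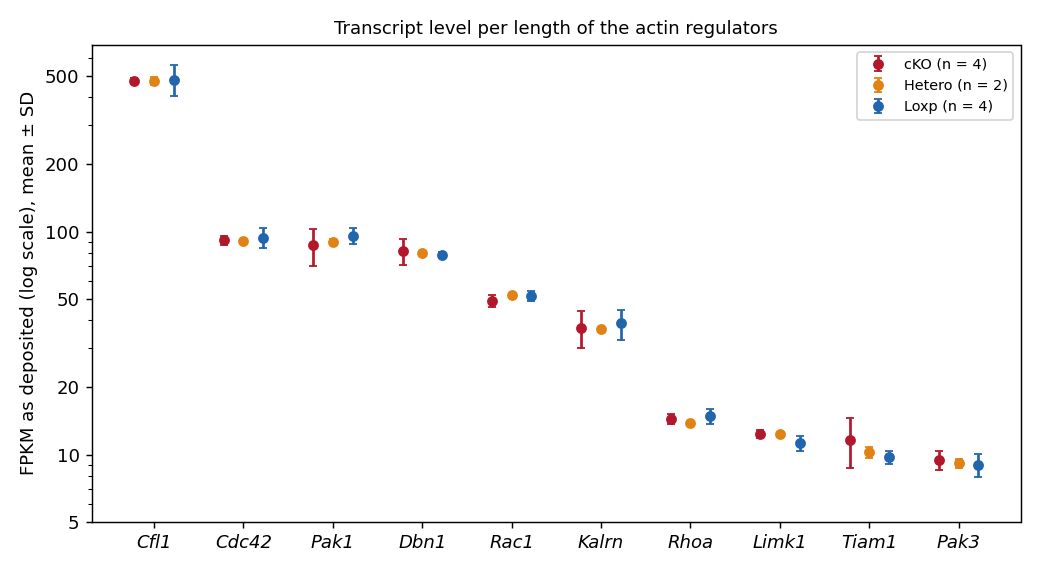
Deposited FPKM of the 10 genes on a log scale, as mean ± SD for cKO (n = 4), Hetero (n = 2) and Loxp (n = 4), ordered by the mean over all libraries. Cfl1 stands near 476 FPKM and Pak3 near 9.19, and within each gene the marks of the 3 groups lie close together.

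The comparison of cKO with Loxp asks whether transcripts of these genes differ when Rxra is deleted from excitatory neurons; that of Hetero with Loxp asks the same of the heterozygous deletion. The 2 comparisons share the 4 Loxp libraries. No member differed between groups beyond the spread between libraries. With edgeR's quasi-likelihood test over 18455 genes, 0 of the 10 members passed an adjusted p of 0.05 in any of the 3 comparisons (cKO against Loxp, cKO against Hetero, and Hetero against Loxp), where 0% of all genes were called in each. At an unadjusted p under 0.05, 0 of the 10 members stood out in any of the 3, where 2.53% of all genes did in cKO against Loxp, 2.54% in Hetero against Loxp and 1.74% in cKO against Hetero. DESeq2 and limma-voom also called 0 members. The groups overlapped for each of the 10 members in all 3 comparisons, whereas they did not overlap for 1.54% of all genes in cKO against Loxp, 11.4% in Hetero against Loxp and 9.43% in cKO against Hetero. Fold changes of the members lay between 0.903 and 1.19 in cKO against Loxp, and their 95% intervals together reached from 0.750 to 1.46. In Hetero against Loxp the fold changes lay between 0.931 and 1.10, with intervals from 0.733 to 1.35, and in cKO against Hetero between 0.944 and 1.14, with intervals from 0.769 to 1.46. The median log2 fold change of the members was −0.033 in cKO against Loxp (0.00033 over all genes tested), −0.0074 in Hetero against Loxp (−0.0068 over all) and 0.017 in cKO against Hetero (0.0078 over all). In bulk tissue, fewer cells of a type and less RNA per cell cannot be told apart.

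**Figure D2:**
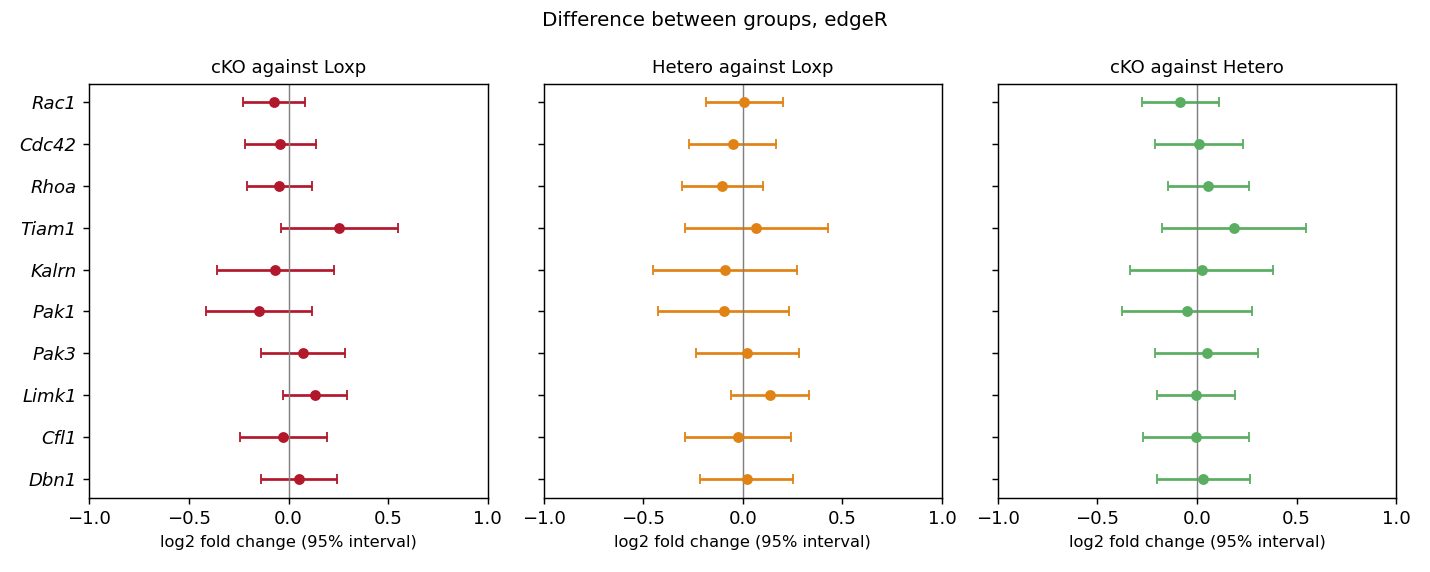
log2 fold changes of the 10 genes (points) with 95% intervals (bars) from the edgeR fit of all 10 libraries, for cKO and Hetero each against Loxp and for cKO against Hetero. Every interval covers 0; the point farthest from 0 is Tiam1 in cKO against Loxp, at 0.25.

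Rac1, Rhoa and Cdc42, the GTPases, held the 3 lowest SDs of log2 CPM in the set over the 10 libraries, at 0.0779, 0.0902 and 0.0969. Coordinates are those of the GENCODE M21 annotation on GRCm38. Rac1 (ENSMUSG00000001847, chromosome 5, 143503634 to 143528036), which drives branched actin growth in spine heads, stood at 221, 237, 223 and 204 CPM in the cKO libraries, 235 and 234 in the Hetero libraries, and 248, 233, 232 and 219 in the Loxp libraries. The groups overlapped, and the spread from the lowest to the highest library was 1.22-fold. Its log2 fold change was −0.074 (SE 0.0728, 95% interval −0.23 to 0.083) in cKO against Loxp and 0.0088 (SE 0.0891) in Hetero against Loxp. The annotated exons of Rac1 share 2309 of their 4496 bases with exons of Daglb on the opposite strand, and as the kit does not mark strand, reads from the shared stretch cannot be told apart. Over the 10 libraries the table gave 52914 counts to Rac1 and 8125 to Daglb, 15.4% of the Rac1 count. Cdc42 (ENSMUSG00000006699, chromosome 4, 137319696 to 137357720), a GTPase that acts through WASP proteins and PAK, stood at 266, 291, 269 and 262 CPM in the cKO libraries, 270.2 and 270.2 in the Hetero libraries, and 319, 281, 274 and 247 in the Loxp libraries. Loxp 1 was the highest and the library labelled Loxp 4 the lowest of all 10 libraries, and the cKO and Hetero libraries lay between them. For Cdc42 the log2 fold change was −0.041 (SE 0.0829, 95% interval −0.22 to 0.14) in cKO against Loxp, and it was 0.027 without Loxp 1. In Hetero against Loxp it was −0.051 (SE 0.102). Rhoa (ENSMUSG00000007815, chromosome 9, 108306129 to 108337934), which promotes actomyosin contraction and spine shrinkage through ROCK, stood at 109, 113, 111 and 101 CPM in the cKO libraries, 105 and 104 in the Hetero libraries, and 116, 121, 112 and 99.6 in the Loxp libraries. Both Hetero libraries lay in the lower part of the Loxp range, above the library labelled Loxp 4. Its log2 fold change was −0.046 (SE 0.0768, 95% interval −0.21 to 0.12) in cKO against Loxp and −0.10 (SE 0.0945) in Hetero against Loxp. Of all genes tested, 4.94% had a lower biological coefficient of variation than Rac1 (8.74%), 7.21% a lower one than Rhoa (8.95%) and 15.1% a lower one than Cdc42 (9.61%). By this measure the lowest of the set was not a GTPase but the kinase gene Limk1, at 8.73%, with 4.80% of all genes tested lower.

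The exchange factors had the largest SD of log2 CPM of the set, 0.231 for Tiam1 and 0.215 for Kalrn, and stood at opposite ends in cKO 2. Their biological coefficients of variation, 14.2% and 14.4%, were near the 14.9% fitted over all genes. Tiam1 (ENSMUSG00000002489, chromosome 16, 89787111 to 90143769), a RAC1 exchange factor coupled to NMDA receptors, stood at 110.1, 159, 97.6 and 96.9 CPM in the cKO libraries, 97.8 and 106 in the Hetero libraries, and 87.8, 105, 98.3 and 97.7 in the Loxp libraries. cKO 2 was far above the other 9 libraries, at 1.62 times their median, and the remaining cKO libraries lay close to the Loxp and Hetero values, with cKO 1 just above both. Tiam1 averaged 116 ± 29.3 CPM in cKO, 102 ± 5.66 in Hetero and 97.1 ± 6.93 in Loxp (SD, n = 4, 2 and 4). The log2 fold change of Tiam1 in cKO against Loxp was 0.25 (SE 0.136, 95% interval −0.039 to 0.55), with an edgeR adjusted p of 0.9998, and its two-sided exact permutation p was 0.286; 4 against 4 libraries cannot give less than 0.0286. Without cKO 2 the log2 fold change was 0.068. Kalrn (ENSMUSG00000061751, chromosome 16, 33969073 to 34573532) encodes kalirin, a set of isoforms with exchange domains for RAC1 and, in the longest, RHOA, of which a short form is concentrated in spines. The gene has 21 annotated transcripts, which the counts per gene cannot tell apart. Kalrn stood at 718, 511, 744 and 805 CPM in the cKO libraries, 682 and 685 in the Hetero libraries, and 593, 682, 793 and 839 in the Loxp libraries. Here cKO 2 was the lowest of the 10 libraries, at 0.712 times the median of the other 9, Loxp 1 was the next lowest, and the library labelled Loxp 4 and cKO 4 were the highest. Kalrn had a log2 fold change of −0.066 (SE 0.136, 95% interval −0.36 to 0.23) in cKO against Loxp; it was 0.059 without cKO 2 and 0.018 without the library labelled Loxp 4. The Hetero against Loxp value was −0.089 (SE 0.167).

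**Figure D3:**
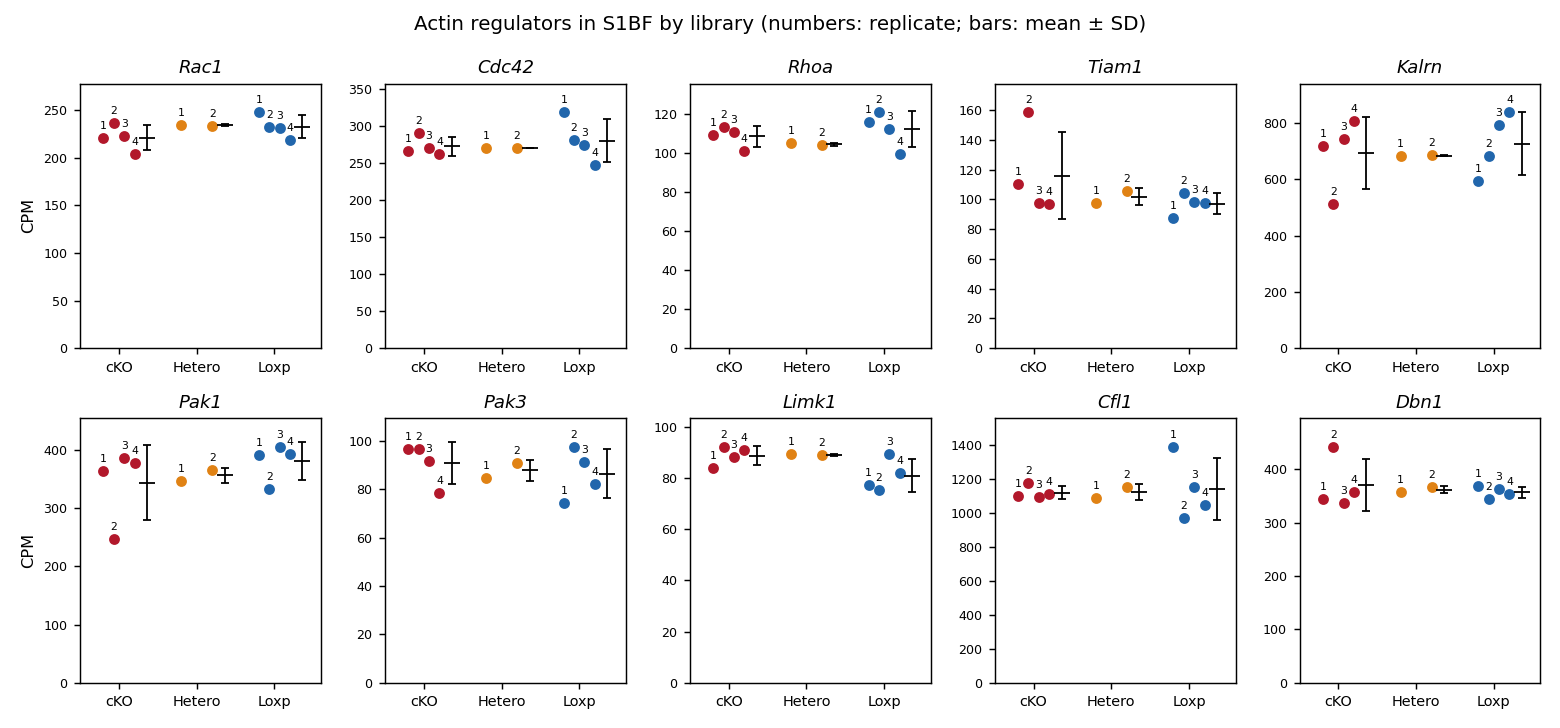
CPM of each of the 10 genes in every library (points, numbered by replicate) with the mean ± SD of each group (bars) for cKO (n = 4), Hetero (n = 2) and Loxp (n = 4). cKO 2 stands apart as the highest library for Tiam1 (159 CPM) and Dbn1 (442 CPM) and as the lowest for Kalrn (511 CPM) and Pak1 (247 CPM), while the groups overlap in every panel.

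Among the kinases, Limk1 had the smallest p in cKO against Loxp and in Hetero against Loxp, and it did not pass the test in either. Limk1 (ENSMUSG00000029674, chromosome 5, 134656039 to 134688598) encodes LIM kinase 1, which phosphorylates cofilin. It stood at 83.9, 92.2, 88.1 and 90.8 CPM in the cKO libraries, 89.4 and 88.8 in the Hetero libraries, and 77.2, 75.2, 89.5 and 81.8 in the Loxp libraries. Of the Loxp libraries only Loxp 3 reached the range of the Cre groups, where it lay above all values but those of cKO 2 and cKO 4. Limk1 averaged 88.8 ± 3.65 CPM in cKO, 89.1 ± 0.398 in Hetero and 80.9 ± 6.36 in Loxp (SD, n = 4, 2 and 4). On the log2 scale Limk1 differed by 0.13 (SE 0.0746, 95% interval −0.028 to 0.29) in cKO against Loxp and 0.14 (SE 0.0910, 95% interval −0.057 to 0.33) in Hetero against Loxp, with an edgeR adjusted p of 0.9998 in both; 6.14% and 9.16% of all genes had a smaller p. Its two-sided exact permutation p in cKO against Loxp was 0.0857, which became 1 when adjusted over all genes tested. cKO against Hetero was −0.0058 (SE 0.0913). Pak1 (ENSMUSG00000030774, chromosome 7, 97788541 to 97912381), the PAK kinase of RAC1 and CDC42 most studied in spines, stood at 363, 247, 386 and 377 CPM in the cKO libraries, 347 and 365 in the Hetero libraries, and 392, 332, 405 and 393 in the Loxp libraries. cKO 2 was the lowest of all 10 libraries, at 0.655 times the median of the other 9, and the other cKO libraries lay within the Loxp range. The log2 fold change of Pak1 in cKO against Loxp was −0.15 (SE 0.124, 95% interval −0.42 to 0.12); without cKO 2 it was −0.016 (SE 0.0783). Pak3 (ENSMUSG00000031284, chromosome X, 143518591 to 143797796), an X-linked PAK kinase whose human gene is mutated in intellectual disability, stood at 96.6, 96.6, 91.7 and 78.2 CPM in the cKO libraries, 84.6 and 90.9 in the Hetero libraries, and 74.3, 97.5, 91.2 and 82.2 in the Loxp libraries. Loxp 1 and cKO 4 were the lowest and the groups overlapped fully. Pak3 had a log2 fold change of 0.072 (SE 0.0973, 95% interval −0.14 to 0.28) in cKO against Loxp, and 0.078 with the level of Xist as a covariate, which stands for the sex of the animals. It was 0.0070 without Loxp 1. The level of Xist was 0.24 CPM in Loxp 3, 3.24 in cKO 2 and 0.21 in cKO 4, and 375 to 611 in the other libraries. Xist was thus not balanced between the groups, as no Hetero library had it low.

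Cfl1 and Dbn1, the actin-binding effectors at the end of the pathway, did not pass the test either. Cfl1 (ENSMUSG00000056201, chromosome 19, 5490455 to 5495201) encodes cofilin 1, the main filament-severing protein of spines, and stood at 1098, 1175, 1091 and 1109 CPM in the cKO libraries, 1087 and 1153 in the Hetero libraries, and 1388, 968, 1151 and 1048 in the Loxp libraries. The Loxp libraries held both the highest value, in Loxp 1, and the lowest, in Loxp 2, and every cKO and Hetero library lay between them. Cfl1 averaged 1118 ± 38.5 CPM in cKO, 1120.1 ± 46.1 in Hetero and 1139 ± 182 in Loxp (SD, n = 4, 2 and 4). The log2 fold change of Cfl1 was −0.026 (SE 0.101, 95% interval −0.24 to 0.19) in cKO against Loxp and −0.024 (SE 0.124) in Hetero against Loxp, and without Loxp 1 these were 0.083 and 0.086. The exons of Cfl1 share 468 bases with Snx32 on the opposite strand, and a processed pseudogene, Gm6180, is 98.8% identical to it over 498 bases and carried 118 counts in all, against 261126 for Cfl1. Dbn1 (ENSMUSG00000034675, chromosome 13, 55473429 to 55488111), the gene of drebrin, stood at 344, 442, 337 and 357 CPM in the cKO libraries, 358 and 366 in the Hetero libraries, and 368, 344, 362 and 353 in the Loxp libraries. The other 9 libraries lay within 337 to 368 CPM and cKO 2 stood above them. Dbn1 had a log2 fold change of 0.053 (SE 0.0887, 95% interval −0.14 to 0.24) in cKO against Loxp, and −0.040 without cKO 2. Hetero against Loxp gave 0.020 (SE 0.109).

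Single libraries weighed on several members, as they did on many genes tested. cKO 2 held the highest value of the 10 libraries for Tiam1, Dbn1 and Limk1 and the lowest for Pak1 and Kalrn. That is 5 of 10 members, against 39.1% of all genes tested and 47.4% of the 133 further actin genes read below. For the other 5 members it lay within the range of the other 9 libraries. It was above 8 of those 9 for Rac1, Cdc42, Pak3 and Cfl1, and above 7 for Rhoa. Loxp 1 held an extreme value for 5 members as well, against 31.6% of all genes tested. It was the highest for Rac1, Cdc42 and Cfl1 and the lowest for Tiam1 and Pak3. Hetero 1, Hetero 2 and cKO 1 held none. With cKO 2 left out, the log2 fold changes of cKO against Loxp were 0.068 for Tiam1, −0.016 for Pak1, 0.059 for Kalrn, −0.040 for Dbn1 and 0.12 for Limk1, so that Kalrn and Dbn1 changed sign. With the library labelled Loxp 4 left out, those of the 10 members ran from −0.13 (Pak1) to 0.26 (Tiam1), and Kalrn changed sign to 0.018. In Hetero against Loxp without Hetero 2, the library with choroid plexus markers, they ran from −0.13 (Pak1) to 0.15 (Limk1). The astrocyte, oligodendrocyte precursor and microglia markers at their highest in cKO 2, and the oligodendrocyte, interneuron and striatal neuron markers at their lowest sum there, given above, moved with these values; their part in the result was not tested.

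**Figure D4:**
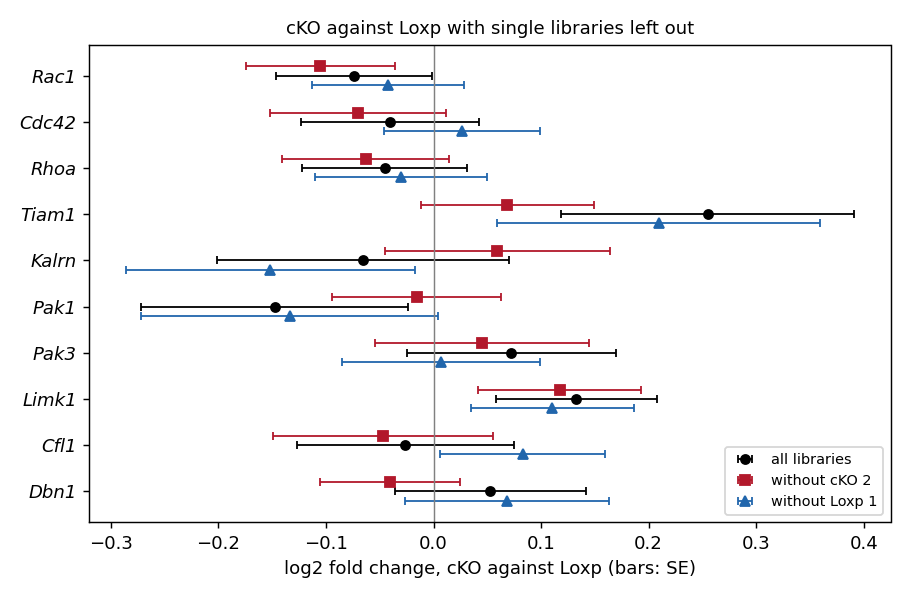
log2 fold change of cKO against Loxp for the 10 genes (points) with its SE (bars) from the edgeR fit of all libraries, without cKO 2 and without Loxp 1. Leaving out cKO 2 takes Tiam1 to 0.068 and Pak1 to −0.016, and leaving out Loxp 1 takes Cfl1 to 0.083.

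The genes whose levels followed Tiam1 and Kalrn most closely, the members with the largest SD of log2 CPM, were read off as a description. Over the 10 libraries, the highest Pearson r of log2 CPM to Kalrn among 18454 genes belonged to Scn1a (0.989), a voltage-gated sodium channel gene, Syne1 (0.986), which encodes the nuclear envelope protein nesprin-1, and Grm2 (0.983), a metabotropic glutamate receptor gene; Spearman's rank correlation was 0.988, 0.964 and 0.939. Without the 2 libraries farthest from the median Kalrn level r was 0.981, 0.961 and 0.957. To Tiam1 the closest were F730043M19Rik (0.984), Plxnd1 (0.973), a semaphorin receptor gene, and Coro1c (0.969), the gene of an actin-binding coronin, with Spearman's rank correlations of 0.891, 0.879 and 0.952. Without the 2 libraries farthest from the median Tiam1 level these r were 0.894, 0.822 and 0.694. The libraries share depth and tissue makeup, and as the genes were picked for the highest r no p is given.

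Beyond the members, 135 further genes of actin regulation in 6 lists were read in the same fit, of which 133 were tested and 0 passed in any of the 3 comparisons by edgeR, DESeq2 or limma-voom. At an unadjusted p under 0.05 edgeR held 1 of 133 in cKO against Loxp (2.53% of all genes), 1 in Hetero against Loxp (2.54%) and 1 in cKO against Hetero (1.74%). These were Rnd3, Arpc2 and, in cKO against Hetero, the myosin gene Myo6 at a log2 fold change of 0.25 (SE 0.116), which is named after its values were seen. Rnd3, which opposes RHOA signalling, stood at 14.5, 14.1, 15.2 and 11.6 CPM in the cKO libraries, 16.7 and 13.9 in the Hetero libraries, and 21.4, 22.2, 18.8 and 13.7 in the Loxp libraries. All 4 cKO libraries lay below Loxp 1, 2 and 3, and the library labelled Loxp 4 lay within the cKO range. Its log2 fold change was −0.46 (SE 0.148) in cKO against Loxp and −0.31 (SE 0.184) in Hetero against Loxp, with an edgeR adjusted p of 0.9998 in both. Arpc2, a core subunit of the ARP2/3 complex that branches filaments, stood at 152, 157, 163 and 155 CPM in the cKO libraries, 139 and 149 in the Hetero libraries, and 186, 166, 162 and 153 in the Loxp libraries. Hetero 1 and Hetero 2 were both lower than all 4 Loxp values, and its log2 fold change was −0.21 (SE 0.0946) in Hetero against Loxp and −0.088 (SE 0.0765) in cKO against Loxp.

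Over all genes tested, 50.1% were higher in cKO against Loxp, 48.2% in Hetero against Loxp and 52.5% in cKO against Hetero. By role, exchange factors were higher for 12 of 21 in cKO against Loxp (median log2 fold change 0.012), with Farp1 at 0.18 (SE 0.117), Mcf2l at 0.10 (SE 0.0732) and Arhgef2, which activates RHOA, at −0.090 (SE 0.0674). GTPase-activating proteins were higher for 11 of 17 (median 0.029), with the RAC-directed Chn2 at −0.17 (SE 0.0908), Arhgap33 at 0.25 (SE 0.138) and Bcr at 0.14 (SE 0.121). Kinases and phosphatases toward cofilin and myosin were higher for 11 of the 17 tested (median 0.034), with Tesk1, another cofilin kinase, at 0.20 (SE 0.110), Pak6 at 0.28 (SE 0.202) and the cofilin phosphatase gene Ssh3 at 0.14 (SE 0.144). Pak6 and Arhgap33 were at 310.5 and 578 CPM in cKO 2, against 143 to 169.7 and 326 to 391 CPM in the other 9 libraries. Genes of actin nucleation and branching were lower for 17 of 28 (median −0.028), with the ARP2/3 subunit Arpc5l at −0.17 (SE 0.0841), Wasf3 at 0.12 (SE 0.0694) and Wasf2 at 0.14 (SE 0.106). Genes of filament binding, capping and turnover were lower for 21 of 38 (median −0.0069), with the myosin light chain Myl6 at −0.14 (SE 0.0767), Cfl2 at −0.12 (SE 0.0765) and Tpm1 at −0.11 (SE 0.0805). All 4 cKO libraries lay below all 4 Loxp libraries for Myl6, at 207 to 217.5 CPM in cKO against 218.1 to 264 CPM in Loxp, a separation that 1.54% of all genes tested showed in either direction.

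In Hetero against Loxp the same lists had medians of 0.020 for exchange factors, 0.011 for GTPase-activating proteins, 0.017 for kinases and phosphatases, −0.042 for nucleation and branching and −0.031 for filament binding, beside −0.0068 over all genes tested. Nucleation and branching genes were lower for 20 of 28, with Arpc2 as above and Cyfip1, a subunit of the WAVE complex that RAC1 activates, at −0.16 (SE 0.0799). Others named by the smallest p were Prex2 at −0.25 (SE 0.171) and Dock4 at −0.13 (SE 0.105) among the exchange factors, Arhgap33 at 0.16 (SE 0.169) and Bcr at 0.12 (SE 0.148), Tesk1 at 0.15 (SE 0.134) and Pak2 at −0.12 (SE 0.118), Myl6 at −0.17 (SE 0.0946) and the actin crosslinker Actn1 at 0.12 (SE 0.0862). Both Hetero libraries lay outside the Loxp range for Cyfip1, Myl6, Arhgap33 and Actn1 as they did for Arpc2, which was so for 11.4% of all genes tested. None of these passed the edgeR test at an adjusted p of 0.05, and an exact test of 2 against 4 libraries could not go below p = 0.0667.

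In cKO against Hetero, where both groups carry Nex-cre, 84 of the 133 genes tested in the 6 lists were higher (63.2%, against 52.5% of all genes tested), with a median log2 fold change of 0.020, against 0.0078 over all genes tested. Kinases and phosphatases were higher for 14 of 17 (median 0.050), exchange factors for 15 of 21 (median 0.032) and GTPase-activating proteins for 11 of 17 (median 0.016). Genes of nucleation and branching were higher for 15 of 28 (median 0.0030) and those of filament binding for 22 of 38 (median 0.0094). These counts describe the lists and none of their genes passed the edgeR test at an adjusted p of 0.05.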

How the data were processed

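Trizol-extracted RNA was made into libraries with the NEBNext Ultra RNA kit, per the labels' protocols; that kit does not mark strand. Raw counts per gene were deposited by the authors, and the submitters' processing notes name featureCounts 1.5.0-p3 and the mm10 build; no aligner, annotation or strand setting is named in the sources used. FPKM values were deposited by the authors in the same table and served only to compare levels between genes. The 12 group mean and test columns of the table were not used.

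Counts were fitted with edgeR 4.0.16 (R 4.3.3): filterByExpr by group kept 18455 of 52636 genes, libraries were scaled by TMM, and a quasi-likelihood model of the 3 groups over all 10 libraries gave each contrast, with Benjamini-Hochberg adjustment over all genes tested and a threshold of 0.05. CPM values are on TMM-scaled totals; depth was 19332990 to 26086337 counts per library, and intervals of counting error cover counting alone. Exact two-sided permutation tests used log2 CPM with a prior count of 2 over every assignment of the libraries compared. Alternatives were DESeq2 1.42.0, limma 3.58.1 voom, other scalings and filters, the replicate number as a block, the level of Xist as a covariate, the compared groups alone, and each library left out in turn. The scripts were tested on simulated data. IDs and coordinates were matched to GENCODE M21 (52403 of 52636 IDs), and exon overlaps and copies of at least 95% identity over 100 bases were listed.

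The members, the lists of further actin genes and of cell type markers, and the tests were chosen with earlier results of these data known. Besides the members, the text names Rxra and Neurod6, from each of the 6 actin lists up to 3 genes with the smallest p in cKO against Loxp and up to 2 in Hetero against Loxp, and the 3 genes closest in level to each of the 2 members with the largest SD of log2 CPM. The result of 1 of these lists is not reported here.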

Additional observations from a re-analysis of the deposited data

Results flagged for a closer look

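Among 72 groups of 4 libraries examined (the members, Rxra, Neurod6 and the named actin genes in cKO and in Loxp), 8 had a highest or lowest library whose gap to its neighbour, as a share of the group's range, passed Dixon's 95% critical value, which chance passes in about 1 in 20 groups; that share stands in parentheses here. Of the 10 members the only one was Pak1, where cKO 2 was the lowest cKO library at 247 CPM (0.836). cKO 2 was also the highest cKO library for Chn2 at 51.1 CPM (0.923), Arhgap33 at 578 CPM (0.920) and Pak6 at 310.5 CPM (0.899). cKO 1 was the lowest cKO library for Mcf2l at 239.8 CPM (0.915), and cKO 4 was the highest for Arhgef2 at 252 CPM (0.892). In Loxp, Loxp 1 was the lowest library for Farp1 at 78.4 CPM (0.867) and Loxp 3 the lowest for Rhou at 45.6 CPM (0.858). Without cKO 2 the log2 fold change of Pak6 in cKO against Loxp was −0.057.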

How the results depend on the processing

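The adjusted p of every member stayed between 0.922 and 1 under all alternatives run. Of 570 values of the members under alternatives, 535 kept their direction and 35, all on the same side of the threshold, changed it. The 570 include fits without a library of the group outside the comparison. Such fits could move a value only through the scaling, filter and spread shared by all libraries. With no low-count filter, edgeR called 32 genes in cKO against Loxp, 68 in Hetero against Loxp and 39 in cKO against Hetero, none a member. With the filter edgeR called 0 in each. On the same 18455 genes that passed the filter, DESeq2 called 2, 17 and 3, none a member. The cause of these differences was not tested. With single libraries left out, the calls ran from 0 to 1 in cKO against Loxp, 0 to 15 in Hetero against Loxp and 0 to 14 in cKO against Hetero, the highest counts without cKO 2 in the first and without Hetero 1 in the others. Without Hetero 1 the Hetero group was Hetero 2 alone, the library with choroid plexus markers at 731 CPM in sum. Calls in that fit cannot tell genotype from what is particular to Hetero 2. They included Ttr, Aqp1 and Slc4a5, at log2 fold changes of 8.08, 3.77 and 4.89 in Hetero against Loxp. DESeq2 called the same genes in that comparison, beside genes lower in Hetero such as Fos at −1.11. The part of choroid plexus tissue in these calls was not tested. A replicate block left 1 gene called by edgeR, Arc, in cKO against Loxp and again in Hetero against Loxp. Same-numbered cKO and Loxp libraries correlated in their deviations at 0.0952, 0.199, 0.0419 and 0.322. Among the Loxp libraries, each cKO library correlated best with the one of its own number. The main fit did not use the numbers, and what they stand for was not tested. Under the block, log2 fold changes turned in Hetero against Loxp to −0.039 for Rac1, 0.036 for Pak1, −0.016 for Pak3, 0.094 for Kalrn, −0.024 for Dbn1, −0.036 for Tiam1 and 0.0033 for Rxra, and in cKO against Hetero to −0.16 for Kalrn and 0.032 for Cfl1. In cKO against Hetero, library size alone gave −0.0022 for Cdc42, no filter gave 0.0027 for Limk1 and 0.0059 for Cfl1, and Xist as a covariate gave −0.00091 for Kalrn and −0.017 for Dbn1.

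With single libraries left out, the log2 fold changes that changed direction ran, in cKO against Loxp, from −0.089 to 0.027 for Cdc42, −0.096 to 0.083 for Cfl1, −0.040 to 0.0996 for Dbn1, −0.15 to 0.059 for Kalrn and −0.057 to 0.40 for Pak6. In Hetero against Loxp they ran from −0.098 to 0.017 for Cdc42, −0.093 to 0.086 for Cfl1, −0.041 to 0.087 for Pak3, −0.011 to 0.041 for Rac1 and −0.19 to 0.010 for Rxra. In cKO against Hetero they ran from −0.025 to 0.024 for Cdc42, −0.043 to 0.040 for Cfl1, −0.066 to 0.074 for Dbn1, −0.059 to 0.14 for Kalrn, −0.027 to 0.020 for Limk1, −0.11 to 0.075 for Pak1, −0.0016 to 0.11 for Pak3 and −0.0060 to 0.26 for Tiam1. Neurod6 passed at an adjusted p of 2.96e-07 with no filter and 0.0406 by DESeq2 in cKO against Loxp, and at 0.00966 with no filter in Hetero against Loxp. Counting error was at most 2.55% of a member's value, against a biological coefficient of variation of 8.73% to 14.4%, so the spread between libraries and not depth limits the comparisons. With 2 Hetero libraries, their SD rests on 1 difference.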
